A study of Homo sapiens with 18 samples.

Results

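The L2, L3 and L4 elements are old repeats scattered through mammalian genomes, and their RNA was followed here copy by copy in human fibroblasts given a p53-activating drug. Members were taken as every listed repeat copy whose name begins with L2, L3 or L4. They numbered 171935 of 2404193 copies in the table of the 5-FU experiment and 109527 of 1996647 copies in the table of the Nutlin experiment, and 102023 of them were listed in both. They carry 9 repeat names: L2, L2a, L2b, L2c, L3, L3b, L4_A_Mam, L4_B_Mam and L4_C_Mam.

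L2, L3 and L4 are LINEs, retrotransposons without long terminal repeats that copied themselves through an RNA and their own reverse transcriptase. L2 was active in early mammals and is now immobile in the human genome, L3 belongs with the CR1 elements of birds and reptiles, and L4 with the RTE elements. Most remaining copies are short, diverged 3′ ends, many of them inside the introns and untranslated ends of genes. The 3′ end of L2 resembles that of the MIR elements, short repeats that are thought to have moved with L2's enzymes.

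Total RNA of IMR90, an established wild-type line of human lung fibroblasts, was sequenced with a stranded kit, and the study asks how repeat expression goes with p53. One drug was Nutlin (5 µM, 6 h), which frees p53 from its inhibitor MDM2. The other was 5-fluorouracil, a pyrimidine analogue that disturbs RNA and DNA synthesis, called 5-FU here (375 µM, with 6, 12 and 24 h of exposure). Each of these 4 drug groups has DMSO controls of its own time, with the solvent in the volume of the drug, and a further group got no drug or solvent, only new medium 12 h before RNA extraction.

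Each group has 2 libraries, but in the Nutlin table both columns for untreated cells hold the same values (0 copies differed), and they were used as 1 library. Nothing says that the libraries of a group came from separate cultures, so p-values measure the spread between libraries, which may be technical. Total counts ran from 2412334 to 6290320 per library for 5-FU and from 9109885 to 11880265 for Nutlin. Structural RNA (rRNA, tRNA and small RNA) took 30.0% to 45.2% of the former and 74.4% to 80.6% of the latter. Levels are therefore compared only within a table. The DMSO 12 h libraries were the shallowest, with 2412334 and 2540089 counts, and of the 5-FU 24 h libraries replicate 2 had less structural RNA than replicate 1 (33.8% against 43.7%). No gene is listed in the tables and the strand of a copy is not given, so fewer transcripts, fewer cells and less RNA per cell cannot be told apart, and no copy was placed in a gene. Positions are on hg19, the build named in the submitters' processing notes.

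Outside structural RNA, L2, L3 and L4 elements made up 10.35% to 11.8% of the counts in every library of both tables; the first untreated sample is in both and was measured against each table's own total. Per Mb of listed sequence their level was above that of all copies outside structural RNA. Their level, as CPM (counts over the TMM-scaled library size) per Mb of listed sequence, had a median over the 5-FU libraries of 1729 (range 1361 to 1894). The median over all copies outside structural RNA was 699 (554 to 768). In the Nutlin table the medians were 792 and 261. MIR elements stood above them at 2903 and 1447, and ancient L1 elements (names beginning with L1M) below at 612 and 249. A count was present at 95.6% (5-FU) and 93.6% (Nutlin) of listed members, but at 58.4% and 44.0% of all copies outside structural RNA. For MIR it was 96.1% and 94.4%, and for ancient L1 79.1% and 73.2%. Listed copies without a count add length but no level. The part of this and of copy length in the order was not tested.

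Among the names, L3 and L3b were highest per length, at a median of 2624 and 2850 CPM per Mb in the 5-FU table. The L2 names followed, from 1478 for L2 to 2181 for L2b. The ranges over libraries of all neighbours in this order overlapped. L4_A_Mam, L4_B_Mam and L4_C_Mam were lowest at 1010, 1164 and 1196. In the Nutlin table the L3 names were again above the L2 names and the L4 names below them, with medians of 1249, 753 and 451 CPM per Mb for the 3 families.

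Few copies carried most of the signal. Of the 31430 L2b copies listed for the 5-FU experiment 138, or 0.439%, held as much signal as all other L2b copies together, and for L3 it was 74 of 14589 copies. The most abundant L2b copy in the Nutlin table, 127 bases at chr6:36654978-36655104, held 18.8% of L2b alone. Signal here is the mean CPM over all libraries of a table, the drug libraries included. This copy had a mean of 2066 CPM with Nutlin, 145 CPM with DMSO and 154 CPM in the untreated library. Its share of L2b was therefore higher with Nutlin than in the controls. In the 5-FU table the most abundant was a copy at chr17:38613161-38613232, with 10.2% of L2b. L4 counts were more evenly spread, and 116 of 2145 L4_A_Mam copies (5.41%) were needed for as much.

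Copies near the 3′ end of the consensus were both the most frequent and, within L2a, L2b and L2c, the highest per length. The 2 numbers after each repeat name were read as the first and last consensus position, since they spanned the length of the copy to within 10% in 70.5% (5-FU) and 69.0% (Nutlin) of member copies. With the consensus cut into 10 equal parts, the last part held 71.2% of the L2a, L2b and L2c copies of the 5-FU table, at a median of 2352 CPM per Mb against 1056 in the part before it. L3 showed another profile, with 6425 CPM per Mb in the first part, where 1 copy gave 31.9% of the level, and 2562 in the last. The name L2 was also high at the start, with 6047 and 5901 CPM per Mb in its first 2 parts and 1392 in the last. In the later of those 2 parts 1 copy gave 71.9% of the level. Level per Mb also fell with the length of the copy, from 5731 in copies under 100 bases to 536 in those of 1000 bases or more for 5-FU, and from 3306 to 173 for Nutlin. In these shortest and longest classes 95.0% and 96.7% of listed copies had a count for 5-FU, and 92.1% and 94.5% for Nutlin. Their median counts per copy were 3 and 14 for 5-FU and 2 and 6 for Nutlin. How far the listing of copies with a count shapes this fall was not tested. Copies of the last L2a, L2b and L2c part were short (median 131 bases against 272 in the part before), so position and length moved together, and their shares in the level were not tested. How the authors counted a read that only partly overlaps a copy is not given in the sources used here.

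**Figure D1:**
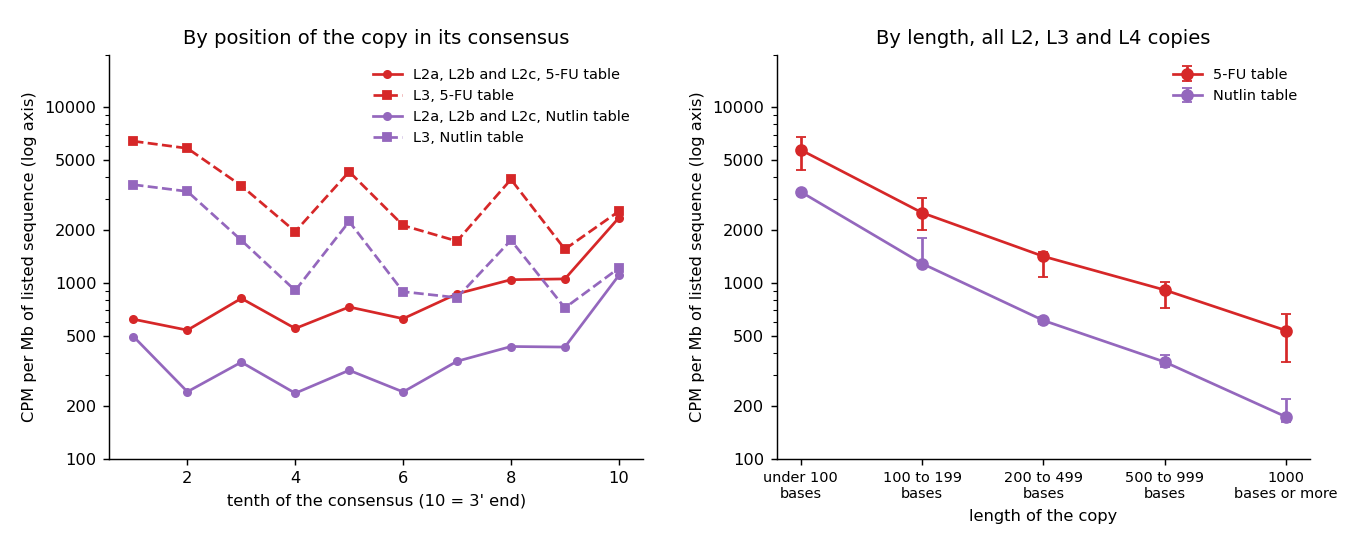
Level of L2, L3 and L4 copies per Mb of listed sequence (CPM per Mb, log axes). Left, median over libraries by position in the consensus cut into 10 equal parts for L2a, L2b and L2c together and for L3; right, by copy length for all members, with bars from the lowest to the highest library. In both tables the L2a, L2b and L2c line is highest in the last part, and the level falls from 5731 to 536 (5-FU table) with length. The name L2 is not drawn on the left.

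Most copies had too few counts for a test. A filter on low counts (edgeR's filterByExpr) left 7837 member copies to test for 5-FU and 2044 for Nutlin. A copy was called where its edgeR quasi-likelihood p, adjusted by Benjamini-Hochberg over all copies tested in the table, was under 0.05. Log2 fold changes are edgeR's estimates with their SE, and ± marks the SD over the 2 libraries of a group.

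Under Nutlin for 6 h, 93 L2, L3 and L4 copies rose and 79 fell of 2044 tested, or 8.41%, beside 9.57% of all copies tested (5.36% higher, 4.21% lower). With total library size in place of TMM scaling, which moves the median of all copies from 0.01 to -0.14 on the log2 scale, the split was 67 risen and 112 fallen. DESeq2 called 76 member copies, all among the 172, and edgeR with no filter on low counts 103. The median log2 fold change of the members was -0.0015, close to the 0.0071 of all copies. By name, 20 L2b copies rose and 18 fell of 356, 33 L2c copies rose and 25 fell of 527, 22 L2a copies rose and 15 fell of 587, and 7 L3 copies rose and 6 fell of 273. MIR elements had 105 risen and 61 fallen of 2166 copies, and ancient L1 elements 133 and 122 of 2885.

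The clearest rise was that of the L2b copy at chr6:36654978-36655104, which covers consensus positions 3241 to 3369. It had 2034 and 2098 CPM in the Nutlin libraries, 152 and 138 CPM in their DMSO controls and 154 CPM in the untreated library. The Nutlin libraries lay far above all 3 others, and the log2 fold change was 3.83 (SE 0.11, edgeR adjusted p = 1.56e-09). All 12 other tested copies of any name within 10 kb rose as well, with a median log2 fold change of 4.32, among them an AluJo (3.65), a MIR (3.90) and a MER3 (4.24).

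An L2a copy at chr20:377488-377606 had 206 and 226 CPM with Nutlin and 17.7 and 23.6 CPM with DMSO, and 13.5 CPM in the untreated library. Its log2 fold change was 3.39 (SE 0.14, edgeR adjusted p = 1.34e-08), and no other copy within 10 kb was tested. Under 5-FU this copy was not called at 6, 12 or 24 h, and at 12 h its libraries (51.4 and 43.0 CPM) overlapped the DMSO libraries (44.9 and 52.8 CPM).

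An L2c copy of 66 bases at chr12:69238336-69238401 had 16.2 and 15.5 CPM with Nutlin, 0.864 and 0.729 CPM with DMSO (8 and 7 counts) and 0.28 CPM untreated. The drug libraries stood apart from the rest, with a log2 fold change of 4.29 (SE 0.28, edgeR adjusted p = 1.71e-06). All 30 tested copies of any name within 10 kb rose. An L2c copy at chr10:90774362-90774466 had 47.6 and 50.7 CPM with Nutlin against 10.6 and 12.1 CPM with DMSO (2.11, SE 0.14, edgeR adjusted p = 1.53e-06), and 1 of 2 tested copies near it rose. The L2a copy at chr12:4464750-4465390, 641 bases long, had 23.4 and 21.9 CPM against 4.43 and 3.65 CPM (2.48, SE 0.19, edgeR adjusted p = 9.9e-06), and 10 of 12 tested copies near it rose.

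Among the falls under Nutlin, the 5 with the smallest p had log2 fold changes of -1.41 to -1.59 and lay in L2a on chromosome X, L2c on chromosomes 10 and 5, L3b on chromosome 15 and L2 on chromosome 10. At the L2a copy, chrX:100419873-100420834, the Nutlin libraries had 5.46 and 5.55 CPM and the DMSO libraries 14.3 and 15.1 CPM. At the L2 copy, chr10:96362610-96362905, the values were 5.38 and 4.83 against 16.7 and 11.9 CPM, and 17 of 30 tested copies near it fell.

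With 5-FU for 6 h, 5 member copies rose and 0 fell of 7837 tested, or 0.0638%, beside 0.101% of all copies tested (0.0896% higher, 0.011% lower); 516 members had an unadjusted p under 0.05. DESeq2 called 11 higher and 1 lower. The 5 were the copies on chromosomes 6, 10 and 12 named above and an L2b and an L2c copy close together on chromosome 16. Leaving out a single library, which leaves its group with 1 and assumes it varies like the others, gave 1 to 3 calls. The copy that kept its call each time was the L2b copy of 390 bases at chr16:88459050-88459439. It had 34.1 and 35.7 CPM with 5-FU and 7.91 and 5.27 CPM with DMSO at 6 h (2.4, SE 0.27, edgeR adjusted p = 0.000318).

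At 12 h, 358 member copies rose and 324 fell, or 8.70% of 7837, beside 9.71% of all copies (5.44% higher, 4.27% lower). The median log2 fold change was -0.14, against -0.04 over all copies. The split was 203 risen and 554 fallen with library size alone, which moves the median of all copies to -0.36. The number depended on the libraries: it was 221 without DMSO 12 h replicate 1, 238 without DMSO 12 h replicate 2, 287 without 5-FU 12 h replicate 1 and 250 without 5-FU 12 h replicate 2. With DMSO of the other times (6 h and 24 h) as the control it was 1036 (562 risen and 474 fallen), of which 415 were among the 682, all but 1 in the same direction.

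At 24 h, 147 member copies rose and 126 fell, or 3.48%, beside 4.23% of all copies (2.42% higher, 1.82% lower), with medians of -0.11 and 0. With library size alone, which moves the median of all copies to -0.15, 104 rose and 182 fell. Without DMSO 24 h replicate 1 there were 88 calls and without DMSO 24 h replicate 2 there were 90. Without 5-FU 24 h replicate 2, 173 rose and 79 fell, and without replicate 1 it was 90 and 125.

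The pair on chromosome 16 had the smallest p of all member rises at each 5-FU time. The L2b copy had 37.3 and 44.7 CPM with 5-FU at 12 h and 38.0 and 36.2 CPM at 24 h. It had 0.741 and 1.15 CPM in the DMSO 12 h libraries (2 and 3 counts, too few for a fold), 2.62 and 2.92 CPM in DMSO 24 h and 2.50 and 3.59 CPM untreated. The drug libraries of each time lay above every control library, with a log2 fold change of 3.73 at 24 h (SE 0.30, edgeR adjusted p = 2.04e-07). Its neighbour, the L2c copy at chr16:88457143-88457307, had 27.2 and 35.0 CPM at 6 h, 72.3 and 81.9 CPM at 12 h and 78.3 and 57.9 CPM at 24 h, against 2.62 to 7.42 CPM in the 8 control libraries. Its log2 fold change was 2.12 at 6 h, 4.42 at 12 h and 3.93 at 24 h (SE 0.31, 0.36 and 0.32). Around the L2b copy 5 of 15 tested copies within 10 kb rose at 6 h and 9 of 15 at both later times. In the Nutlin table the L2c copy had 0.353 and 1.33 CPM with the drug and 1.51 and 1.25 CPM with DMSO, and was not called (-0.79, edgeR adjusted p = 0.5). Its 6 h call under 5-FU was lost without either DMSO library or 5-FU replicate 2 (edgeR adjusted p = 0.0606 to 0.0891).

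Of the 2023 member copies tested in both tables, 3 were called in the same direction in all 4 drug comparisons, and all 3 rose: the L2b copy on chromosome 6 and the L2c copies on chromosomes 10 and 12. The few calls at 5-FU 6 h limit this number. Of the 2023, 4 were called there, and 3 of these (75%) were also called under Nutlin. Over all copies tested in both tables it was 38 of 49 (77.6%). The L2b copy had 1329 and 1448 CPM with 5-FU at 6 h, 3080 and 3287 CPM at 12 h, and 3424 and 1989 CPM at 24 h. Its 8 control libraries in that table lay between 404 and 492 CPM, below every 5-FU library. Its log2 fold changes were 1.65, 2.73 and 2.65 (SE 0.24 to 0.25), with edgeR adjusted p = 0.0026 at 6 h, 8.07e-07 at 12 h and 1.25e-06 at 24 h. The call at 6 h was lost without any one of 3 libraries (both DMSO libraries and 5-FU replicate 2, edgeR adjusted p = 0.064 to 0.103).

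The L2c copy on chromosome 10 had 68.1 and 74.9 CPM with 5-FU at 6 h, 128 and 128 CPM at 12 h and 136 and 90.9 CPM at 24 h, against 25 to 39.8 CPM in the controls. Its log2 fold changes were 1.26, 1.73 and 1.84 (SE 0.22 to 0.23). The L2c copy on chromosome 12 had 11.2 to 14.1 CPM in the 6 libraries with 5-FU and 0.751 to 3.52 CPM in the controls, with log2 fold changes of 1.84, 1.89 and 2.76 (SE 0.35 to 0.39). The 6 h call of both was lost without any one of the 4 libraries (edgeR adjusted p = 0.108 to 0.347), and the 12 h call of the chromosome 12 copy without DMSO 12 h replicate 1 (edgeR adjusted p = 0.0574). Of 9 tested copies within 10 kb of the chromosome 10 copy, 0 were called higher at 6 h, 3 at 12 h and 1 at 24 h. Their median log2 fold changes were 1.25, 2.02 and 1.91. On chromosome 12, 14, 23 and 22 of 30 tested copies within 10 kb rose at 6, 12 and 24 h. A further copy on this chromosome, an L2a at chr12:69213113-69213248, had 11.4 and 11.6 CPM at 24 h with 5-FU against 0.562 and 0.344 CPM (3 and 2 counts) with DMSO, and 19 of 30 tested copies near it rose. The chromosomes of these copies also carry well-known p53 targets (CDKN1A on chromosome 6, FAS on chromosome 10, MDM2 on chromosome 12), but whether the copies lie in them was not tested.

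**Figure D2:**
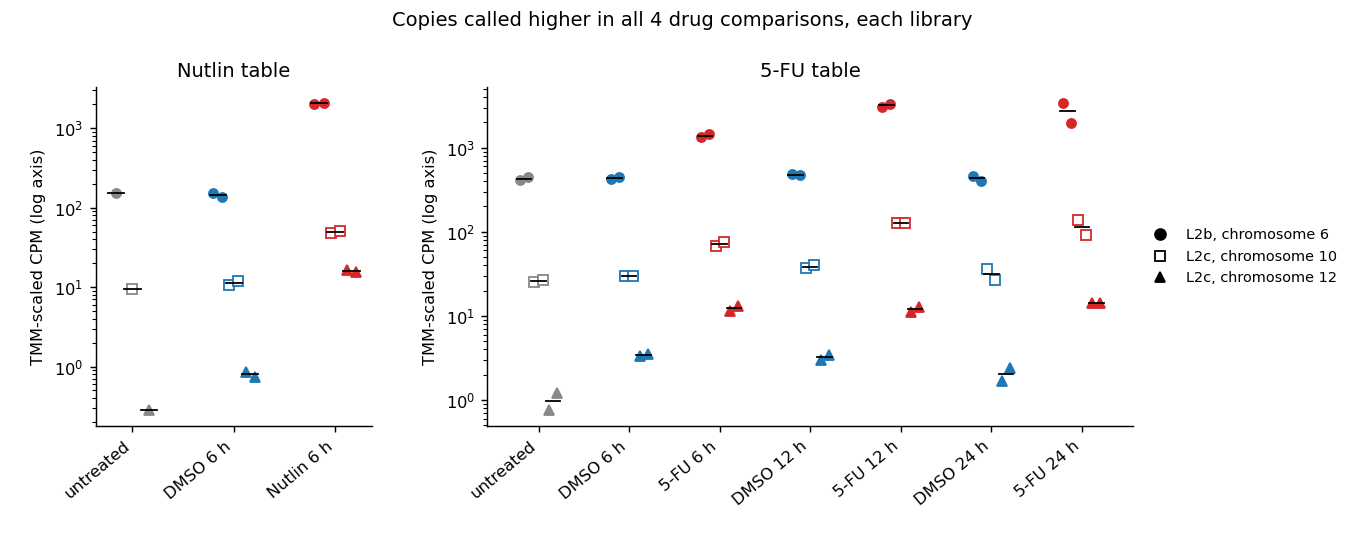
The 3 copies called higher in all 4 drug comparisons, as TMM-scaled CPM on log axes, left for the Nutlin table and right for the 5-FU table. Each point is a library (grey untreated, blue DMSO, red drug) and each black line a group mean. All drug libraries lie above all DMSO and untreated libraries of their table, and at 5-FU 24 h the L2b copy has 3424 and 1989 CPM.

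A pair of other L2c copies also had small p at 12 h. The copy at chr11:57095345-57095535 had 21.5 and 24.7 CPM with 5-FU and 1.11 and 0.382 CPM in DMSO 12 h (3 and 1 counts). The other DMSO libraries had 12.7 to 15.0 CPM and the untreated libraries 23.0 and 23.9 CPM, so the DMSO 12 h libraries stood apart from all other controls and the drug libraries overlapped the untreated ones. With DMSO of the other times as the control the copy was still called, at 0.76 (edgeR adjusted p = 0.0265). The L2c copy at chr12:91573224-91573384 had 116 and 106 CPM with 5-FU at 12 h, above the 14.8 and 13.0 CPM of DMSO 12 h, the 22.1 to 26.9 CPM of the other DMSO libraries and the 77.3 and 92.1 CPM of the untreated ones. Its log2 fold change was 2.99 (SE 0.27, edgeR adjusted p = 7.5e-07), and 2.17 against the other DMSO libraries.

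Of the 5 falls with the smallest p at 12 h, 4 were in L3 elements. The L3b copy at chr15:39890283-39890484 had 36.2 and 27.6 CPM with 5-FU and 169 and 223 CPM with DMSO, a log2 fold change of -2.62 (SE 0.24, edgeR adjusted p = 7.61e-07). The drug libraries lay below all DMSO libraries and overlapped the untreated ones (35.0 and 46.0 CPM). A pair of neighbouring L3 fragments on chromosome 7 fell together. The copy at chr7:79091395-79091757 had 29.1 and 27.6 CPM against 94.9 and 102 CPM (-1.80, SE 0.21), and the one at chr7:79090532-79090824 had 10.3 and 13.9 CPM against 53.7 and 61.2 CPM (-2.24, SE 0.26). Both drug libraries lay below all 8 control libraries at each of these fragments. At chr7:79090532-79090824 the other 6 control libraries had 22.7 to 33.5 CPM, below the DMSO 12 h libraries. Its log2 fold change ran from -2.57 to -1.09 over the alternatives, and was called in each. An L3 copy at chr1:87212673-87212779 had 3.82 and 2.03 CPM against 29.3 and 31.0 CPM in DMSO 12 h, but the other 6 control libraries had 2.81 to 8.53 CPM, and against the other DMSO libraries it was not called (-0.73, edgeR adjusted p = 0.199). For L3 as a whole 34 copies rose and 50 fell of 762, or 11.02%, beside the 9.71% of all copies.

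The 5 falls with the smallest p at 24 h were all in L2 elements. The L2c copy at chr10:129896162-129896265 had 1.39 and 0.929 CPM with 5-FU and 24.5 and 19.1 CPM with DMSO (-4.24, SE 0.39, edgeR adjusted p = 8.94e-07). The L2 copy on chromosome 10 that fell under Nutlin had 2.08 and 1.55 CPM against 23.8 and 26.2 CPM (-3.79, SE 0.35, edgeR adjusted p = 8.94e-07), and 28 of 32 tested copies near it fell. An L2 and an L2a fragment close together at chr1:68940251-68940476 and chr1:68941781-68941929 had 1.39 and 2.17 CPM and 3.94 and 3.72 CPM with 5-FU. Their DMSO 24 h values were 32.2 and 26.7 CPM and 38.6 and 31.1 CPM, and their log2 fold changes were -3.98 and -3.18 (SE 0.40 and 0.29). The L2b copy at chr19:11256732-11256967 had 13.4 and 11.5 CPM against 104 and 76.7 CPM (-2.86, SE 0.26, edgeR adjusted p = 8.94e-07). In 4 of the 5 both 5-FU 24 h libraries were below the other 12 libraries of the table, and at the L2 copy on chromosome 10 the 5-FU 12 h libraries (2.06 and 2.90 CPM) lay beside them.

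These 5 copies were not called at 6 h. Their 6 h log2 fold changes lay between -0.40 and 0.10 and the smallest edgeR adjusted p was 0.793. The difference of the 24 h and 6 h effects, tested as an interaction, was called at each of them, from -2.96 (SE 0.36, edgeR adjusted p = 0.000177) at the L2b copy on chromosome 19 to -4.13 (SE 0.51, edgeR adjusted p = 0.000205) at the L2c copy on chromosome 10. The copies were picked for their fall at 24 h, and the interaction uses the same 24 h libraries. These calls were therefore not independent of the choice. Over all members the interaction was called at 17 copies, 2 higher and 15 lower of 7837, or 0.217%, beside 0.385% of all copies (0.0865% higher, 0.299% lower). That number was 46 without 5-FU 24 h replicate 1, and 10 without DMSO 6 h replicate 1, DMSO 24 h replicate 1 or either 5-FU 6 h library. DESeq2 called 44, and a minimum of 10 counts in every library gave 50. Summed by name it was called for 0 of 9 by edgeR, beside 1.11% of all names (0.835% higher, 0.278% lower), with 0 at an unadjusted p under 0.05 and 0 by DESeq2. Control values moved too: at the L2b copy on chromosome 19 the DMSO libraries had 34.3 and 49.8 CPM at 6 h, 37.1 and 51.6 CPM at 12 h and 104 and 76.7 CPM at 24 h, and the untreated libraries 141 and 158 CPM.

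**Figure D3:**
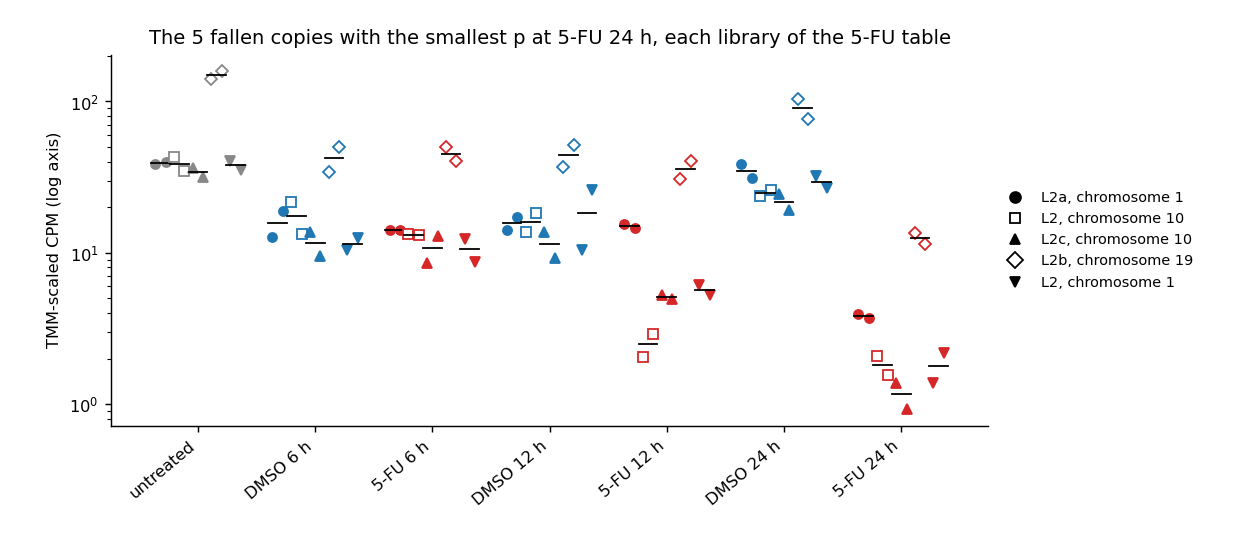
The 5 member copies with the smallest p among those that fell at 5-FU 24 h, as TMM-scaled CPM on a log axis in each library of the 5-FU table (grey untreated, blue DMSO, red 5-FU; black line, group mean). The 5-FU 24 h points lie below all DMSO and untreated points for each copy, down to 0.929 CPM at the L2c copy on chromosome 10.

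Of the member copies called under Nutlin that were tested in both tables, 56 of 166 (33.7%) were also called with 5-FU at 12 h, where they made up 14.5% of 386 calls. Of these 34 had the same direction (25 higher, 9 lower) and 22 the opposite one. At 24 h 45 were shared, 27.1% of the Nutlin calls and 25.6% of the 5-FU calls, with 38 in the same direction (14 higher, 24 lower). Over all repeat copies the shares were 27.7% and 14.3% at 12 h, with 349 of 540 in the same direction, and 23.5% and 26.5% at 24 h, with 397 of 459. Within the 5-FU experiment, the 5 copies called at 6 h were called again at both later times. Over all repeat copies 56 of 64 (87.5%) were called again at 12 h, and 56 at 24 h. Of the 682 member calls at 12 h, 136 (19.9%) were called at 24 h too, 133 of them in the same direction. Over all repeat copies it was 1276 of 6177 (20.7%), 1255 of them in the same direction.

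Called copies lay near other called copies. Among the 93 members that rose under Nutlin, 57 (61.3%) had another risen copy of any name within 10 kb and 1 had a fallen one, while 127 of the 1872 members without a call (6.78%) had a risen copy that near. For the 79 that fell, 44 (55.7%) had another fallen copy near and 2 a risen one. At 5-FU 24 h the shares were 63.9% of the risen and 59.5% of the fallen members, and 5.43% and 3.40% of those without a call. Over all repeat copies the shares were alike, at 63.6% and 50.5% under Nutlin and 58.6% and 65.8% at 24 h. The 46 copies named by p or by calls in all 4 drug comparisons were counted once in each comparison. Of these, 40 had a tested copy within 10 kb, 34 of them a copy called in the same direction, and 0 a copy called in the opposite direction.

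Most calls were of at least 1 on the log2 scale with no overlap between drug and DMSO libraries. This held for 117 member copies under Nutlin (5.72%, beside 6.78% of all copies tested) and 5 at 5-FU 6 h (0.0638%, beside 0.101%). It held for 642 at 12 h (8.19%, beside 8.98%) and 257 at 24 h (3.28%, beside 3.96%).

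**Figure D4:**
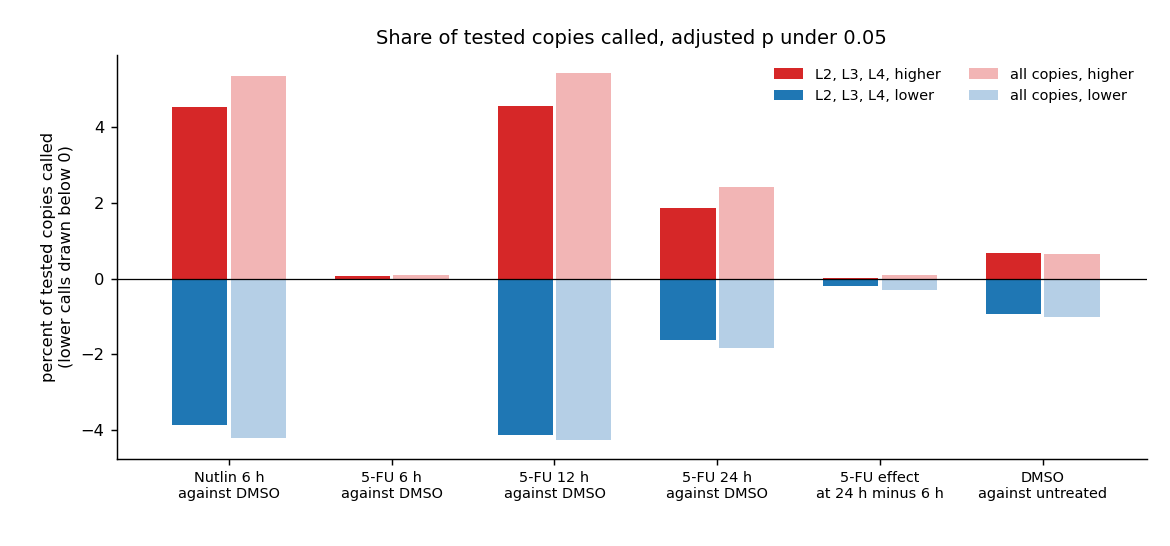
Percent of tested copies called (edgeR adjusted p under 0.05) in each comparison, higher above 0 and lower below it, dark for L2, L3 and L4 elements and pale for all repeat copies. The dark bars follow the pale ones, with 8.41% against 9.57% under Nutlin and 8.70% against 9.71% at 5-FU 12 h.

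Summed over all copies of a name, L2b alone rose under Nutlin, 1 of 9 names (11.1%) beside 12.7% of all names tested (9.63% higher, 3.11% lower). It had 6336 and 6026 CPM with Nutlin and 4204 and 4166 CPM with DMSO, a log2 fold change of 0.56 (SE 0.07, edgeR adjusted p = 1.15e-08), and the other 8 names lay between -0.19 and 0.06. With library size alone L2b was still higher and 6 names were lower. The rise lay in its most abundant copy: without chr6:36654978-36655104 the log2 fold change of L2b was 0.0027 (edgeR adjusted p = 0.992) and 0 names were called. That copy ranks by its mean over all libraries, including the Nutlin libraries in which it rose. The removal was therefore not independent of the values tested.

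With 5-FU the number of names called and their direction depended on the time and the scaling. At 6 h 0 of 9 names were called by edgeR, beside 0% of all names; L2b had the 1 unadjusted p under 0.05 (0.20, SE 0.07), and DESeq2 also called 0. At 12 h L2 and L2b rose, 2 of 9 names beside 33.8% of all names (28.5% higher, 5.29% lower), and the median of all names was 0.17. L2b had 15271 and 15732 CPM with 5-FU against 10073 and 9885 CPM with DMSO (0.64, SE 0.07, edgeR adjusted p = 2.64e-05), or 0.46 above that median. With library size alone 7 names were lower and the L2b change was 0.06 (edgeR adjusted p = 0.614). L2 rose by 0.23 (SE 0.06, edgeR adjusted p = 0.0142), only 0.06 above it. Its call was lost without any 1 of the 4 libraries (edgeR adjusted p = 0.0637 to 0.534), and its direction reversed with library size alone (-0.34) and with DMSO of the other times as the control (-0.23). With that control L2b was not called (0.16, edgeR adjusted p = 0.0556) and 4 names were lower. At 24 h L2b rose by 0.29 (SE 0.07, edgeR adjusted p = 0.0179), 1 of 9 names beside 12.1% of all names (10.9% higher, 1.21% lower), a call lost without either DMSO 24 h library (edgeR adjusted p = 0.0924 and 0.114). It was also lost with RLE size factors (0.15, edgeR adjusted p = 0.368), library size alone (0.06, edgeR adjusted p = 0.832), TMM factors from the filtered copies (0.23, edgeR adjusted p = 0.0503), DESeq2 and a fit of only the libraries compared. In an alternative chosen after seeing the data, leaving out the chromosome 6 copy lowered the L2b change to 0.37 at 12 h (edgeR adjusted p = 0.00087) and to 0.06 at 24 h (edgeR adjusted p = 0.588), where 0 names were then called.

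**Figure D5:**
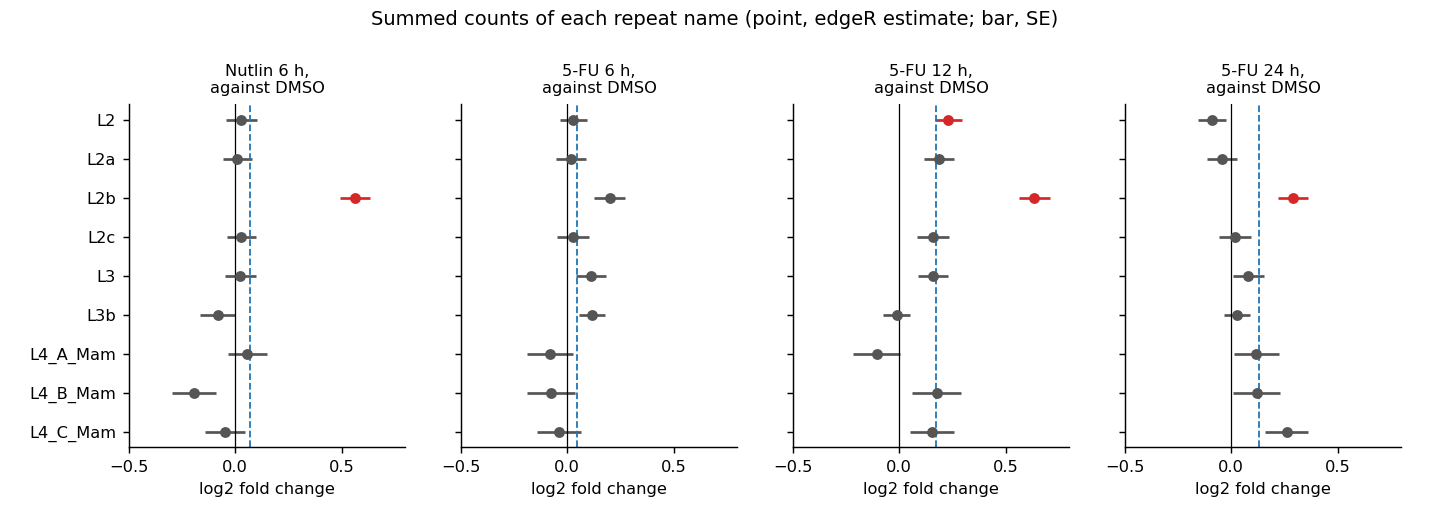
Log2 fold change of the summed counts of each of the 9 repeat names in the 4 drug comparisons. Points are edgeR estimates, bars are SE, red points are called, and the dashed line is the median of all repeat names (0.17 at 5-FU 12 h). L2b is the only name called under Nutlin (0.56) and lies right of all others at 5-FU 12 h (0.64).

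Of related repeats, 0 copies matched the names listed for RTE relatives. By name, 3 of 4 MIR names and 4 of 15 CR1 relatives were higher at 5-FU 12 h, 1 CR1 relative was lower, and ancient L1 names had 9 higher and 16 lower of 88. Of their copies 377 rose and 251 fell of 6165 in MIR, and 311 rose and 713 fell of 10996 in ancient L1, beside the 358 and 324 of the L2, L3 and L4 elements. The medians were 0.04 for MIR, -0.51 for ancient L1 and -0.14 for the members.

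Of the most abundant copy of each name, those of L2, L2a, L2b, L3, L4_B_Mam and L4_C_Mam rose at 12 h, and those of L2c, L3b and L4_A_Mam were not called. Of all copies tested 5.44% were higher and 4.27% lower at that time. The most abundant copies were picked for high counts over all libraries, the 5-FU libraries included, so the shares are not comparable. The L2 call was near the threshold (edgeR adjusted p = 0.0487). The L2b copy on chromosome 17 had 1353 and 1435 CPM with 5-FU and 469 and 532 CPM with DMSO at 12 h (1.48, SE 0.22, edgeR adjusted p = 0.000181). Its DMSO 6 h libraries had 2236 and 1747 CPM and its DMSO 24 h libraries 927 and 970 CPM, so the DMSO 12 h libraries were the lowest of all 14. The L2a copy at chr11:838654-838835 had 2220 and 2266 CPM against 890 and 1030 CPM (1.22, SE 0.24, edgeR adjusted p = 0.00293), and the L3 copy at chr1:201453504-201453562 had 1032 and 1188 CPM against 513 and 651 CPM (0.93, SE 0.27, edgeR adjusted p = 0.034). The most abundant L2c copy had 412 and 424 CPM with 5-FU at 12 h against 397 and 442 CPM with DMSO, and its libraries overlapped. Among the L4 names, the L4_B_Mam copy at chr6:41873224-41873265 had 42.0 and 45.9 CPM with 5-FU at 12 h and 10.7 and 9.56 CPM with DMSO (2.11, SE 0.33, edgeR adjusted p = 0.000289). At 24 h it had 43.8 and 20.3 against 16.5 and 13.2 CPM (1.09, SE 0.29, edgeR adjusted p = 0.0352), while the untreated libraries had 25.8 and 31.7 CPM, above every DMSO library. The L4_A_Mam copy had 15.2 ± 2.76 against 16.0 ± 0.445 CPM at 12 h (SD, n = 2 each). The L4_C_Mam copy at chr10:105155373-105155749 rose at 12 h (63.5 and 82.2 against 32.6 and 31.4 CPM, 1.19, SE 0.25) and at 24 h (55.6 and 32.2 against 21.2 and 21.7 CPM, 1.03, SE 0.25), with edgeR adjusted p = 0.0049 and 0.0191. The 9 most abundant copies of the 5-FU table gave 0 calls at 6 h and 0 for the interaction.

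Fewer member copies were detected with 5-FU at 12 h. Drawn down by calculation to 179973 member counts in each library, the 5-FU 12 h libraries had a count at 33485 and 34481 copies and the DMSO 12 h libraries at 49095 and 44829. At 6 h the values were 43237 and 41021 with 5-FU against 49806 and 48931 with DMSO. At 24 h the 5-FU libraries differed from each other, with 38969 copies in replicate 1 and 53002 in replicate 2, on either side of the DMSO values (47921 and 51861). All copies outside structural RNA had the same order at 12 h, with 272659 and 280910 against 380719 and 350373 copies at 1618055 counts. The share of structural RNA was 44.7% and 45.2% in the 5-FU 12 h libraries and 32.6% and 36.3% in DMSO 12 h, and its part in these values was not tested.

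DMSO against untreated cells, over the 6 DMSO libraries of the 5-FU table, gave 53 higher and 72 lower member copies of 7837, or 1.595%, beside 1.66% of all copies (0.643% higher, 1.02% lower), and 0 of 9 names by edgeR beside 11.8% of all names, 1.67% higher and 10.1% lower (2 names had an unadjusted p under 0.05, and DESeq2 called 1). With library size alone, which moves the median of all copies from 0.01 to -0.13, 52 copies were higher and 167 lower. Without 1 of the 2 untreated libraries 15 or 20 copies were called, and without DMSO 6 h replicate 2, DMSO 12 h replicate 1 or DMSO 24 h replicate 2 it was 72, 73 or 72. The L3b copy on chromosome 15 was higher with DMSO, at 202 and 228 CPM at 6 h, 169 and 223 CPM at 12 h and 101 and 93.1 CPM at 24 h against 35.0 and 46.0 CPM untreated (1.98, SE 0.21, edgeR adjusted p = 2.49e-05). Every DMSO library of this table lay above both untreated ones. In the Nutlin table the same copy had 18.7 and 12.8 CPM with DMSO and 13.4 CPM untreated, so there the DMSO libraries lay on either side of the untreated one. The L2c copies at chr12:91573224-91573384 and chr11:57095345-57095535 were lower with DMSO (-2.05 and -2.16, SE 0.19 and 0.24). At the chromosome 11 copy the DMSO 12 h libraries had 3 and 1 counts, and the other DMSO libraries, at 12.7 to 15.0 CPM, lay closer to the 23.0 and 23.9 CPM of the untreated ones. In the Nutlin table these copies had 20.7 and 27.3 CPM with DMSO against 29.3 CPM untreated, and 8.21 and 6.77 against 8.59 CPM. The L2b copy at chr20:43880903-43880989 had 1.91 to 13.1 CPM in the DMSO libraries and 0 and 1 counts in the untreated ones, too few for a fold, and its call was lost without untreated replicate 1 (edgeR adjusted p = 0.0706).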

How the data were processed

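Total RNA of IMR90 cells was sequenced, and per the file headers the authors deposited counts of reads per repeat copy in a table for each experiment. The submitters' processing notes list Trimmomatic 0.32, cutadapt 1.10, Bowtie2, edgeR, DESeq2 and hg19. How reads with several matches, partial overlaps or strand were counted is not given in the sources used here, and copies of one name share sequence, so the counts of single copies are uncertain where reads could be split among them. The 2 tables list different copies and were fitted apart. The number of sample columns not used was 0.

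Counts were scaled by TMM and tested with edgeR 4.0.16 (R 4.3.3), quasi-likelihood, over all copies passing filterByExpr, with all groups of a table in 1 fit and Benjamini-Hochberg adjustment over all copies (threshold 0.05). Names were tested on summed counts in the same way. DESeq2 1.42.0, other scalings and filters, a replicate block and leaving out each library were alternatives, and the code was tested on simulated data. Named copies were the 5 with the smallest p in each direction of a drug comparison (2 in the other comparisons) among calls that changed by 1 or more on the log2 scale without overlap between the groups, those called in all 4 drug comparisons, and the most abundant of each name. The members and lists were chosen with earlier results of these data known. Replicate numbers showed no clear pairing of the samples, and the block was an alternative only. Depth was 2412334 to 11880265 counts per library, so most copies were not testable.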

Additional observations from a re-analysis of the deposited data

Results flagged for a closer look

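The 5-FU effect differed between 24 h and 6 h at 17 member copies, by the interaction of drug and time in edgeR's quasi-likelihood test, a number that ran from 10 to 46 with 1 library left out and was 46 without 5-FU 24 h replicate 1. Among the named fallen copies the difference, as the 24 h log2 fold change minus that at 6 h, was -2.96 at L2b on chromosome 19 (chr19:11256732-11256967), -4.13 at L2c on chromosome 10 (chr10:129896162-129896265), -3.02 at L2a on chromosome 1 (chr1:68941781-68941929), -3.39 at L2 on chromosome 10 (chr10:96362610-96362905) and -3.87 at L2 on chromosome 1 (chr1:68940251-68940476). These copies were picked for their fall at 24 h, and the difference uses the same 24 h libraries. The L2a copy on chromosome X (chrX:100419873-100420834), named for its fall under Nutlin, differed by -2.04. With 5-FU it had 17.1 and 22.4 CPM at 6 h and 13.4 and 8.52 CPM at 24 h, against 21.0 and 20.7 CPM and 48.1 and 45.4 CPM with DMSO, so the control level was higher at 24 h too.

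The 2 differences in the other direction were at the threshold. The L4_A_Mam copy at chr14:55530231-55530721 had 7.29 and 10.8 CPM with 5-FU at 6 h and 29.0 and 25.1 CPM at 24 h, against 6.18 to 7.81 CPM in DMSO of those times, a difference of 1.85 (edgeR adjusted p = 0.0496) that lost its call in 11 of 16 alternatives. The L2b copy at chr2:112067409-112067744 had 37 and 8 counts with 5-FU at 24 h and 0 and 0 with DMSO. Its fitted difference of 7.40 (edgeR adjusted p = 0.0496) rests on those 0 counts and is no bound, and the call was lost in 8 of 14 alternatives.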

How the results depend on the processing

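Of the 46 named copies, counted once in each comparison, 37 kept their call and direction under every alternative that tested them, 9 lost the call under some and 0 changed sign. Most were picked for the smallest p in these data, so this does not describe calls in general. With only the libraries of the comparison, 315 of the 682 calls at 12 h and 113 of the 273 at 24 h were kept. Counts of called member copies moved as follows, and the cause was not tested where fewer features or libraries were not the change itself. Under Nutlin (172) DESeq2 gave 76 and no filter 103. At 5-FU 6 h (5) a minimum of 10 counts in every library gave 8, DESeq2 12, only the libraries of the comparison 8, no filter 16, and leaving out 1 library 1 to 3. At 12 h (682) they were 377 with the count minimum, 1036 against DMSO 6 h and 24 h, 324 with only the libraries of the comparison, 314 with no filter and 221 to 287 with 1 library left out. At 24 h (273) they were 118 with only the libraries of the comparison, 135 with no filter and 88 to 252 with 1 library left out. For the difference of 24 h and 6 h (17) they were 30 with library size alone, 50 with the count minimum, 44 with DESeq2, 10 with only the libraries of the comparison, 27 with no filter and 10 to 46 with 1 library left out, the highest without 5-FU 24 h replicate 1. For DMSO against untreated (125) they were 219 with library size alone, 208 with only the libraries of the comparison and 15 to 95 with 1 library left out.

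Counts of called names moved to 3 with RLE size factors, 7 with library size alone and 0 without the most abundant copy under Nutlin. At 12 h they were 7 (all lower) with library size alone, 5 without structural RNA, 4 (all lower) against DMSO 6 h and 24 h, and 1 with any 1 library left out. At 24 h they were 0 with RLE size factors, library size alone, TMM factors from the filtered copies, only the libraries of the comparison or without the chromosome 6 copy of L2b, DESeq2 called 1 lower, and leaving out 1 library gave 0 to 4. The difference of 24 h and 6 h gave 0 to 2, with 2 without 5-FU 24 h replicate 1. DMSO against untreated gave 1 with RLE size factors, 2 with TMM factors from the filtered copies, 1 with DESeq2 and 4 with only the libraries of the comparison. The summed L2 at 12 h reversed to -0.34 with library size alone, -0.0092 with TMM factors from the filtered copies and -0.23 against DMSO 6 h and 24 h.

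The replicate numbers showed no clear pairing of the samples (correlations of their deviations -0.105 to 0.139, the highest between 5-FU 24 h and DMSO 24 h). Most copies had low counts, so a pairing may not show in these correlations. With a replicate block 139 member copies were called under Nutlin, 6, 617 and 235 with 5-FU at 6, 12 and 24 h, 14 for the difference and 103 for DMSO against untreated, and names called were 1, 0, 2, 1, 0 and 0. Groups of 2 libraries and counts of a few per copy limit what could be called.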
